A study of Homo sapiens with 12 samples.

Results

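The TAM receptors and their ligands are a group of 5 genes, the receptor tyrosine kinases AXL, TYRO3 and MERTK and the secreted ligands GAS6 and PROS1. They were selected by gene name, and all 5 were among the 15601 genes of the table over 12 libraries and in the 6 tables over pairs of groups. Their values were read in SNU449 cells, a mesenchymal-like cell line from human hepatocellular carcinoma, and in SNU449-Axl-KO cells, in which Axl had been disrupted by CRISPR/Cas9. Each background was sequenced as control cells (SNU449-ctrl, SNU449-Axl-KO-ctrl) and as cells adapted to the kinase inhibitor regorafenib (SNU449-Rego, SNU449-Axl-KO-Rego). Adaptation began at 50% of the IC50, the concentration that lowers viability to the midpoint, and was raised in steps every 2 weeks until 2 x IC50. The Rego groups are thus adapted populations, and regorafenib was given to them again after each passage. Each of the 4 groups has 3 libraries, labelled as technical triplicates of 1 population, so that p-values measure only the spread between these libraries. The position of the edit in AXL, and whether the knockout line is 1 clone, are not given in the sources used here.

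TAM receptors sit in the cell membrane and bind GAS6 or protein S, the product of PROS1. Both ligands carry a domain rich in gamma-carboxylated glutamate, which holds them to phosphatidylserine on dying cells or vesicles, and a second domain that binds the receptor. AXL responds to GAS6, while TYRO3 and MERTK can be activated by both ligands. MERTK is best known from phagocytes, where it drives the uptake of dying cells, AXL from mesenchymal and drug-tolerant tumour cells, and TYRO3 from the nervous system. Protein S is also an anticoagulant that the liver secretes into the blood.

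On GRCh38, AXL (ENSG00000167601) lies on chromosome 19 from 41219223 to 41261766 on the plus strand, TYRO3 (ENSG00000092445) on chromosome 15 from 41557675 to 41583589 on the plus strand, and MERTK (ENSG00000153208) on chromosome 2 from 111898607 to 112029561 on the plus strand. GAS6 (ENSG00000183087) lies on chromosome 13 from 113820549 to 113864076 and PROS1 (ENSG00000184500) on chromosome 3 from 93873051 to 93980003, both on the minus strand. Exons of GAS6 overlap the antisense RNA GAS6-AS1 and an exon of AXL overlaps an antisense lncRNA, and the strand setting of the counting is not given in the sources used here. Copies of TYRO3 (TYRO3P, chromosome 15) and of PROS1 (PROS2P, chromosome 3) could share reads with them, so that these values are uncertain to that extent. The promoters of AXL and GAS6 are shown because the results turn on these 2 genes. Given are the 250 bases before the RefSeq start (GRCh38.p14; for AXL the upstream one of 2), chr19:41218973-41219222 on the plus strand for AXL and chr13:113864077-113864326 on the minus strand for GAS6, with the GC box in capitals (GGGCGG or its reverse complement CCGCCC, the binding motif of SP1 and SP3).
AXL: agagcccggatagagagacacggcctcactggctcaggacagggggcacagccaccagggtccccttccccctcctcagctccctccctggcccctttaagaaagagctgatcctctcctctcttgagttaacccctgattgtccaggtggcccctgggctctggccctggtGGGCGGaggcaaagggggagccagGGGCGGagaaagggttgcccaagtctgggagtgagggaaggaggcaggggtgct
GAS6: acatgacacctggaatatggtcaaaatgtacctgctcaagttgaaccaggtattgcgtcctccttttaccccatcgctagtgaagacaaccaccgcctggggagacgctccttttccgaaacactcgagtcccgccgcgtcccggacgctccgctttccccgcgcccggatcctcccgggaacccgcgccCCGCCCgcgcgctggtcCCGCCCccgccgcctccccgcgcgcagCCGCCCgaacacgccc
The AXL window held 2 GC boxes and the GAS6 window 3, and a GC box was present in 42.6% of 35116 windows of the same length. Neither window held the AP-1 motif TGANTCA (6.57% of all windows), the TEAD motif GGAATG (11.9%) or the hypoxia response core ACGTG (18.5%) on either strand. The window before the other RefSeq start of AXL (chr19:41226505-41226754) differed, with no GC box or AP-1 motif, 1 TEAD motif and 2 hypoxia response cores. These matches describe letters in the sequence and not bound sites.

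The level of a gene in a library is the deposited batch-corrected value, called library value here. It is a rounded number on a linear scale, with a lowest value of 12 in the 12-library table of the main fit. It compresses low genes towards that floor. The floor lay between 18 and 51 in the pair tables, so that low genes can be compressed more there. Changes are differences of group means of log2(value + 1) with the standard error (SE) from limma, in a fit over all 15601 genes with the replicate number as a block, and a gene was called at a Benjamini-Hochberg adjusted p under 0.05. Fold changes are on the log2(value + 1) scale and understate changes of low genes. The read depth of a library is unknown. Of the cell type markers, the mesenchymal ones were all present (6 of 6 listed, authors' mean normalized counts from 158 to 18945), and of the 5 epithelial ones KRT8 and KRT18 were listed (means of 267 and 1092) and EPCAM, CDH1 and KRT19 were not. Of the 8 hepatocyte markers only APOA1 and AFP were listed (means of 1.14 and 4.26), and ALB and HNF4A were not. Macrophage markers were listed for 4 of 6 with means from 1.12 to 6.19, and none of the 5 endothelial or 4 T cell markers was listed.

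AXL was the most abundant TAM receptor in SNU449 and was reduced to a small remainder in the knockout line. In SNU449-ctrl its library values were 727, 941 and 715, and in SNU449-Axl-KO-ctrl 35, 53 and 33. In SNU449-Rego they were 1237, 815 and 1271, and in SNU449-Axl-KO-Rego 50, 38 and 52. Every library of SNU449 lay above every library of the knockout in both states. Without overlap in the same direction were 13.4% of all genes in control cells and 13.2% in resistant cells. AXL was lower in the knockout by 19.5-fold in control cells (log2 change -4.29, SE 0.235, adjusted p = 2.16e-09) and by 23.0-fold in resistant cells (log2 change -4.52, SE 0.235, adjusted p = 1.27e-09). By the size of the change, AXL ranked 4 among all genes in control cells and 2 in resistant cells. Of all genes, 3.43% were called lower in control and 1.93% in resistant cells. Since the 3′ tags of this assay report the end of the transcript, they measure how much AXL RNA was left and not the edit itself. In these bulk libraries, less AXL in every cell and fewer cells that express AXL cannot be told apart.

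With resistance to regorafenib, AXL had a higher mean in both backgrounds, and no change was called. In SNU449, the library values were 727, 941 and 715 in control cells and 1237, 815 and 1271 in resistant cells. The groups overlapped. The change was 0.46 on the log2 scale (SE 0.235, 95% confidence interval -0.03 to 0.96, adjusted p = 0.272), with 7.81% of all genes called in this comparison. Leaving out 1 library at a time gave changes between 0.31 and 0.74, none of them called. In SNU449-Axl-KO the change of the remaining AXL signal was 0.22 (interval -0.27 to 0.72, adjusted p = 0.670). The difference of the 2 changes, 0.24 (interval -0.46 to 0.94, adjusted p = 0.765), was not called. Replicate 2 was the highest AXL library in both control groups and the lowest in both resistant groups. An effect of the replicate number had been removed from the deposited values, which sets the deviations of libraries with the same number against each other across the groups, so that nothing about replicate 2 is read from this pattern.

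**Figure D1:**
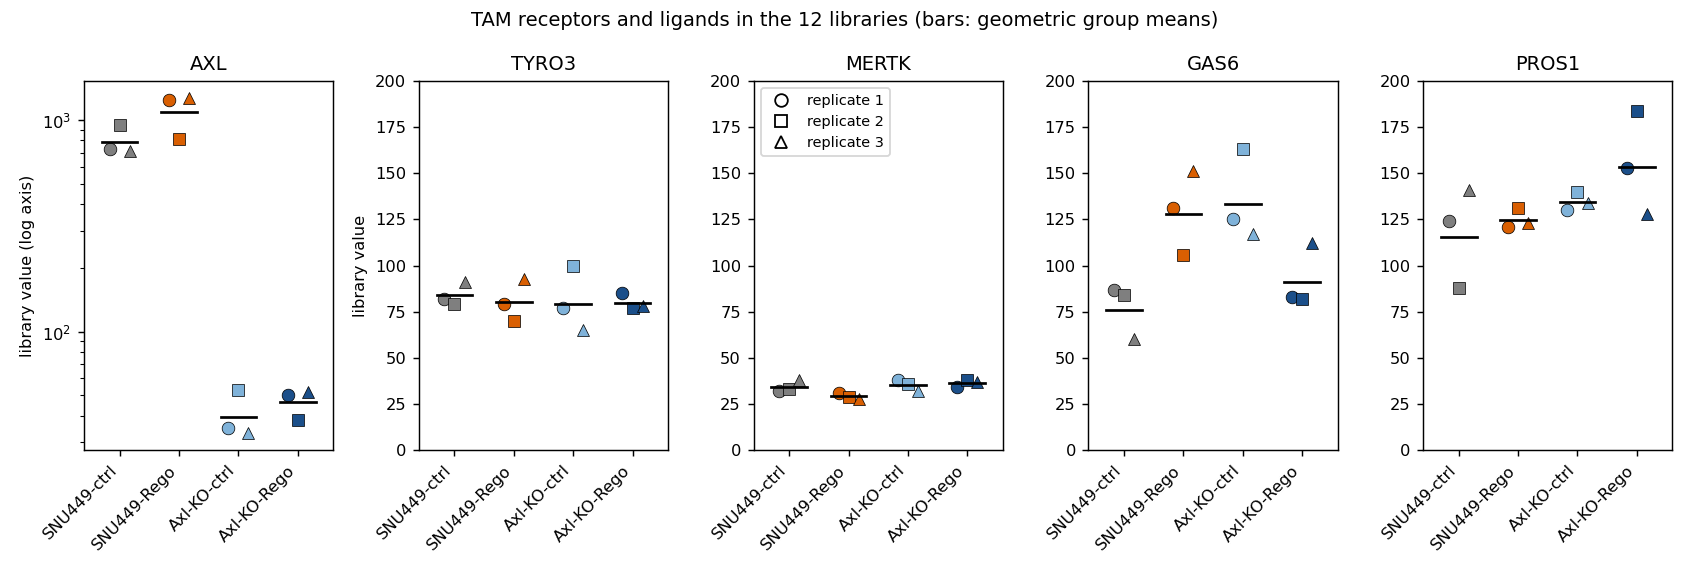
Library values of the 5 genes in each of the 12 libraries, with the group on the x axis, the replicate number as the symbol and the geometric group mean as a bar; the y axis is logarithmic for AXL and linear from 0 for the others. AXL separates SNU449 (715 to 1271) from SNU449-Axl-KO (33 to 53), TYRO3 lies between 65 and 100 in all groups, and GAS6 is low in SNU449-ctrl (60 to 87) and high in SNU449-Axl-KO-ctrl (117 to 163).

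The make-up of the receptor family followed AXL. A 3′ assay yields about 1 tag per transcript, so that levels of different genes can be set side by side without division by length. In the table over the SNU449 libraries, the authors' mean normalized count was 885 for AXL, 53.1 for TYRO3 and 4.73 for MERTK, so that AXL made up 93.9% of the tags of the 3 receptors. In the table over the SNU449-Axl-KO libraries, the means were 17.2 for AXL, 59.7 for TYRO3 and 9.06 for MERTK. AXL then held 20.0% of the receptor tags, TYRO3 69.4% and MERTK 10.5%. The sum of the 3 receptors was 943 in SNU449 and 86.0 in the knockout. On this count scale, which has no floor, AXL was 51.4-fold lower in the knockout. TYRO3 was 1.13-fold higher there, and MERTK, at low counts, 1.92-fold higher. These counts are the authors' means over 6 libraries, without a spread, and the 2 tables were normalized separately.

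**Figure D2:**
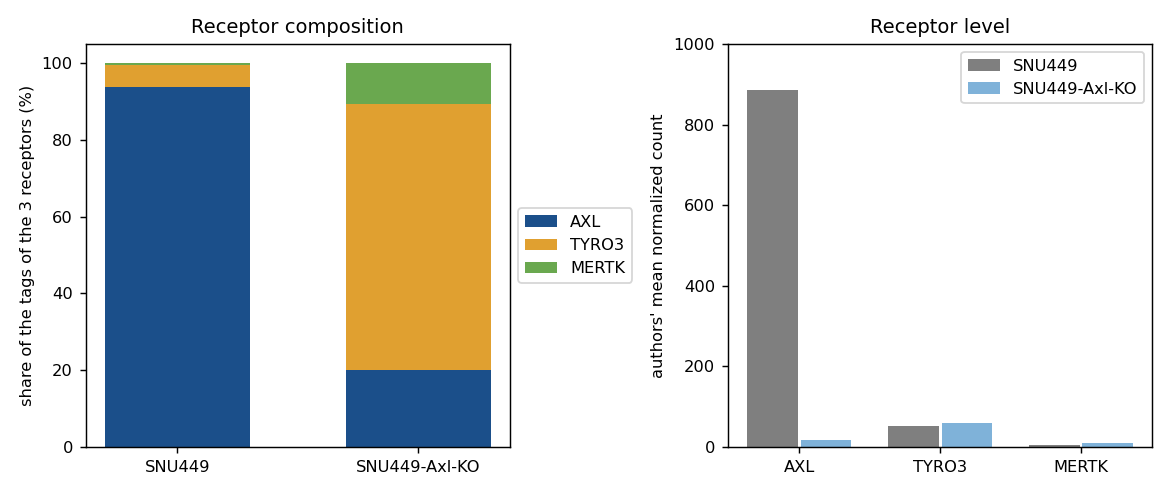
Left, the share of each receptor among the tags of AXL, TYRO3 and MERTK in percent; right, the authors' mean normalized count of each receptor, for the SNU449 and the SNU449-Axl-KO libraries. AXL falls from 93.9% to 20.0% of the receptor tags. The bars of TYRO3 (53.1 and 59.7) and MERTK (4.73 and 9.06) are short beside that of AXL in SNU449. The MERTK mean is 1.92-fold higher in the knockout, at low counts.

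TYRO3, the receptor related to AXL that takes the largest share in the knockout, had similar library values in all groups. Its library values were 82, 79 and 91 in SNU449-ctrl and 79, 70 and 93 in SNU449-Rego. They were 77, 100 and 65 in SNU449-Axl-KO-ctrl and 85, 77 and 78 in SNU449-Axl-KO-Rego. All 4 groups overlapped. The group means of the library values spanned 0.08 on the log2 scale, a smaller span than in 99% of genes. The largest of the 4 changes between groups was -0.08 (Axl knockout in control cells, SE 0.203, interval -0.50 to 0.35, adjusted p = 0.879). Intervals of this width leave room for changes of about 0.4 in either direction. On the count scale, group means of TYRO3 were solved from the authors' means of the 6 pair tables. They were 57.8 in SNU449-ctrl, 48.5 in SNU449-Rego, 58.4 in SNU449-Axl-KO-ctrl and 61.1 in SNU449-Axl-KO-Rego. These means have no replicate error and their differences were not tested. When libraries were centred on the spike-in RNAs, the knockout differences turned to 0.13 in control and 0.29 in resistant cells, and neither was called.

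MERTK, the receptor of phagocytes, was measured at low counts. Its mean normalized count over the 12 libraries was 6.72, above only 20.5% of the genes. The library values were 32, 33 and 38 in SNU449-ctrl, 31, 29 and 28 in SNU449-Rego, 38, 36 and 32 in SNU449-Axl-KO-ctrl, and 34, 38 and 37 in SNU449-Axl-KO-Rego. The 3 libraries of SNU449-Rego were the lowest of all 12 and did not overlap with SNU449-ctrl or SNU449-Axl-KO-Rego. Of all genes, 13.3% were lower without overlap in the first of these comparisons and 14.8% higher in the second. The change with resistance in SNU449 was -0.22 (SE 0.172, adjusted p = 0.514) and the difference of SNU449-Axl-KO-Rego from SNU449-Rego was 0.30 (SE 0.172, adjusted p = 0.386), so that no change was called. Group means on the count scale, solved from the authors' means of the 6 pair tables, were 6.76 in SNU449-ctrl, 2.54 in SNU449-Rego, 8.25 in SNU449-Axl-KO-ctrl and 9.71 in SNU449-Axl-KO-Rego. A few tags decide such means, and they carry no replicate error. Macrophage markers stood at similarly low means (1.12 to 6.19).

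GAS6, which encodes the ligand of AXL, was the only member besides AXL with a called change in this fit, and its change with resistance differed between the backgrounds. The library values were 87, 84 and 60 in SNU449-ctrl and 131, 106 and 151 in SNU449-Rego. They were 125, 163 and 117 in SNU449-Axl-KO-ctrl and 83, 82 and 112 in SNU449-Axl-KO-Rego. Every resistant library was above every control library in SNU449 and below every control library in SNU449-Axl-KO. Among all genes, 14.6% were higher without overlap in the first comparison and 14.1% lower without overlap in the second.

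In SNU449, GAS6 was 1.68-fold higher in resistant cells (log2 change 0.74, SE 0.223, adjusted p = 0.0480). Of all genes, 4.31% were called higher there. In SNU449-Axl-KO it was lower by 0.54 on the log2 scale (SE 0.223, interval -1.01 to -0.07, adjusted p = 0.188), which was not called. The difference of the 2 changes was 1.29 (SE 0.316, adjusted p = 0.0198), with 5.87% of all genes called, 2.95% in this direction. In control cells GAS6 was 1.75-fold higher without Axl (log2 change 0.81, SE 0.223, adjusted p = 0.0339), where 4.03% of all genes were called higher and 14.5% were higher without overlap. In resistant cells it was lower without Axl by 0.48 (SE 0.223, adjusted p = 0.260), and the groups overlapped. Ordered by level, SNU449-Axl-KO-ctrl (mean log2 7.07 ± 0.251, SD, n = 3) and SNU449-Rego (7.01 ± 0.255) came first and overlapped, followed by SNU449-Axl-KO-Rego (6.53 ± 0.252) and SNU449-ctrl (6.27 ± 0.292), which overlapped as well.

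The calls of GAS6 were near the threshold. The resistance change in SNU449 was no longer called in the table over the 6 SNU449 libraries (0.58, adjusted p = 0.118), after centring on spike-in RNAs (0.79, adjusted p = 0.0648) or with a pseudocount of 16 (0.65, adjusted p = 0.0503). It was also lost without SNU449-ctrl replicate 1, 2 or 3 (adjusted p = 0.0519, 0.0814 and 0.238), SNU449-Rego replicate 1 or 3 (0.134 and 0.226), SNU449-Axl-KO-ctrl replicate 2 (0.0502) and SNU449-Axl-KO-Rego replicate 1 or 2 (0.0672 and 0.0592). The knockout change of GAS6 in control cells was lost in the table of that pair (0.64, adjusted p = 0.0578) and without SNU449-ctrl replicate 2 or 3 (0.0592 and 0.168) or SNU449-Axl-KO-ctrl replicate 1 or 2 (0.0598 and 0.222). The difference between the backgrounds was lost after spike-in centring (1.20, adjusted p = 0.0569) and without SNU449-ctrl replicate 3 (0.0539), SNU449-Rego replicate 1 or 3 (0.0542 and 0.0591), SNU449-Axl-KO-ctrl replicate 2 (0.0901) or SNU449-Axl-KO-Rego replicate 1 or 2 (0.0726 and 0.0757). The sign of GAS6 was the same in all these fits.

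**Figure D3:**
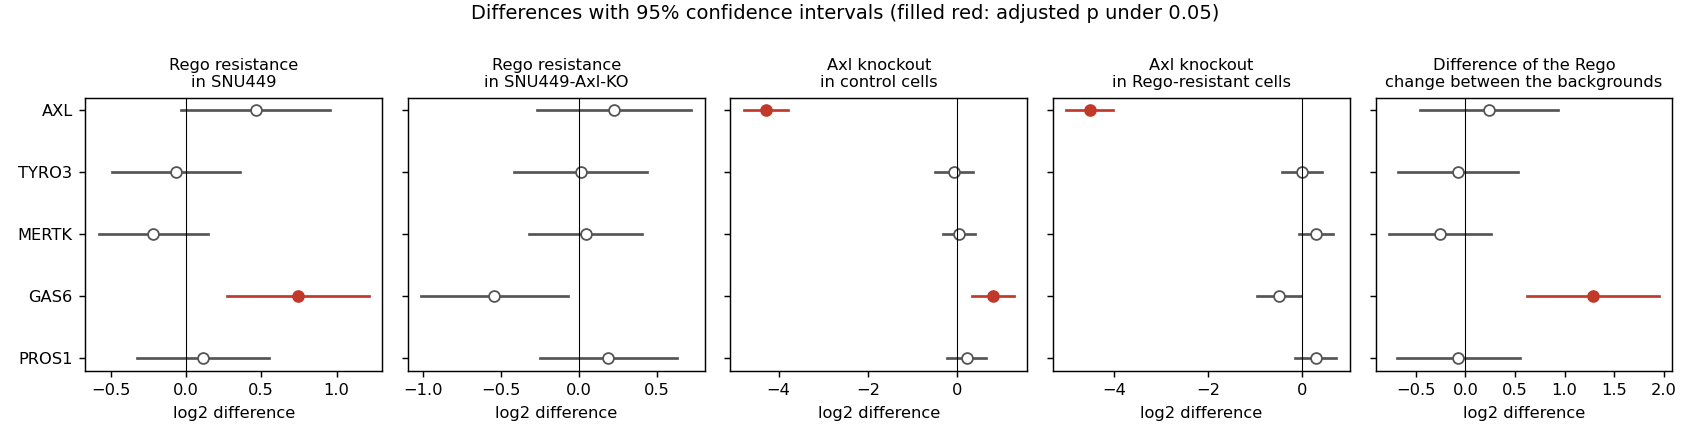
Log2 differences of the 5 genes in the 5 comparisons, with 95% confidence intervals from the limma fit; filled red points have an adjusted p under 0.05, and each panel has its own x axis. AXL stands at -4.29 and -4.52 in the knockout comparisons, GAS6 at 0.74 in SNU449 and -0.54 in SNU449-Axl-KO with resistance, and the intervals of TYRO3, MERTK and PROS1 include 0.

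PROS1, the gene of protein S, showed no called change. The library values were 124, 88 and 141 in SNU449-ctrl, 121, 131 and 123 in SNU449-Rego, 130, 140 and 134 in SNU449-Axl-KO-ctrl, and 153, 184 and 128 in SNU449-Axl-KO-Rego. On the log2 scale SNU449-ctrl had the widest spread (SD 0.348), with SNU449-Axl-KO-Rego next (SD 0.260). The highest single library was in SNU449-Axl-KO-Rego, and in these values the groups overlapped in all 4 comparisons. The largest change was 0.29 (Axl knockout in resistant cells, SE 0.209, interval -0.14 to 0.73, adjusted p = 0.505). Over 10 alternatives other than leaving out a library, this change ranged from 0.20 to 0.59, with a lowest limma adjusted p of 0.0579. In the pair table of the resistant groups, values were 175 to 194 in SNU449-Rego and 199 to 221 in SNU449-Axl-KO-Rego, without overlap. The share of all genes without overlap was not counted in that table. With resistance PROS1 changed by 0.11 in SNU449 (adjusted p = 0.815) and 0.19 in SNU449-Axl-KO (adjusted p = 0.694), which were not called.

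On the count scale the balance of the ligands differed between the groups. Group means solved from the pair tables were 47.5 for GAS6 and 95.7 for PROS1 in SNU449-ctrl, and 98.0 and 90.3 in SNU449-Rego. They were 120 and 124 in SNU449-Axl-KO-ctrl, and 79.6 and 149.7 in SNU449-Axl-KO-Rego. PROS1 thus exceeded GAS6 by 2.02-fold in SNU449-ctrl and by 1.88-fold in SNU449-Axl-KO-Rego, whereas the ratio was 0.921 in SNU449-Rego and 1.03 in SNU449-Axl-KO-ctrl. The solved means met the deposited means of the pair tables to within 1.60% for GAS6 and 0.843% for PROS1. They have no replicate error, and the ratio was not tested.

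**Figure D4:**
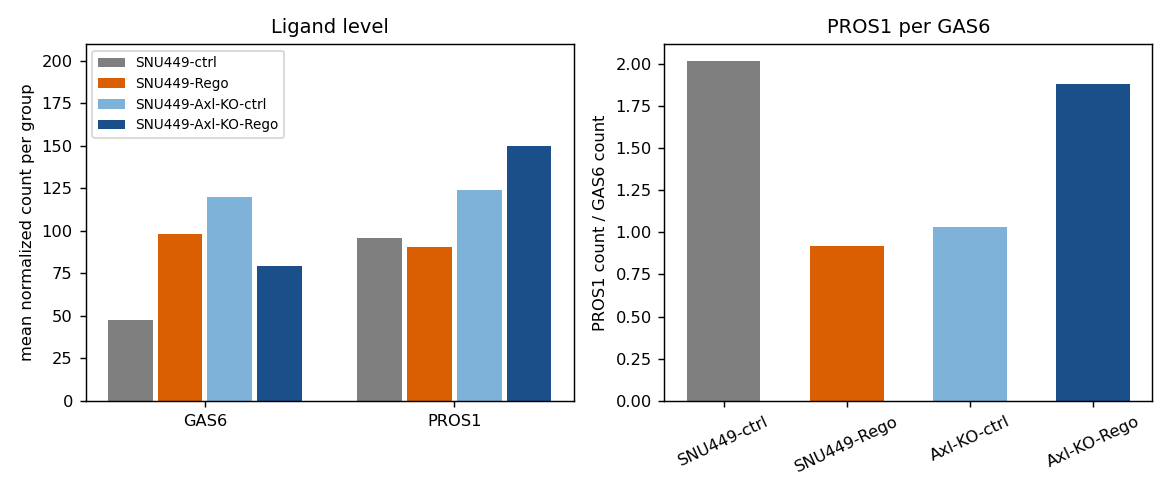
Left, mean normalized counts of GAS6 and PROS1 per group, solved from the authors' means of the 6 pair tables; right, the ratio of PROS1 to GAS6. GAS6 is lowest in SNU449-ctrl (47.5) and highest in SNU449-Axl-KO-ctrl (120), and the ratio is 2.02 and 1.88 in SNU449-ctrl and SNU449-Axl-KO-Rego against 0.921 and 1.03 in the other groups.

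Genes around the receptors and ligands were followed in 7 lists with 96 genes, of which 85 were listed in the table. Of these, 9 were called with resistance in SNU449 (10.6%, against 7.81% of all genes), 8 with resistance in SNU449-Axl-KO (9.41% against 4.35%), 7 with Axl knockout in control cells (8.24% against 7.45%), 7 with Axl knockout in resistant cells (8.24% against 4.37%), and 7 for the difference between the backgrounds (8.24% against 5.87%). Median changes of the lists can be set against that of all genes, which lay between -0.01 and 0.01 in the 5 comparisons. Of the 38 calls, 10 were made under every alternative processing and with any 1 library left out, and 28 were lost in at least 1 of these. None changed direction. Changes below are on the log2 scale.

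Maturation of the ligands requires gamma-carboxylation by GGCX with vitamin K recycled by VKORC1, and removal of a propeptide by proteases such as FURIN. Of 6 genes 5 were listed, and 1 was called, FURIN, which fell with resistance in SNU449-Axl-KO (-0.90, SE 0.205, adjusted p = 0.0164), a call lost in 5 of 21 alternatives. GGCX was at 0.10 with resistance in SNU449 and 0.31 with Axl knockout in control cells, and VKORC1 at -0.04 and 0.13, none of them called. The list's median change was 0.08 and -0.14 with resistance in SNU449 and SNU449-Axl-KO. Shedding of AXL into soluble Axl is carried out by ADAM10 and ADAM17, and CBL proteins mark receptors for degradation. Of the 12 genes in the shedding and turnover list 10 were listed, and limma called 0 of them in each of the 5 comparisons. At an unadjusted p under 0.05, 3, 1, 2, 0 and 1 of the 10 passed (resistance in SNU449 and in SNU449-Axl-KO, knockout in control and in resistant cells, difference), and without the block 1 was called, with resistance in SNU449. Of all 15601 genes, 3316, 2894, 3357, 2835 and 3032 passed in the same order. Without the block, 2175 of all genes were called with resistance in SNU449. ADAM10 was at 0.10 with resistance in SNU449 and at 0.46 with knockout in control cells (SE 0.216, adjusted p = 0.219), and ADAM17 at -0.30 and -0.43. The median change of the list was between -0.03 and 0.13 in the 5 comparisons.

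Exposure of phosphatidylserine, the membrane lipid that the ligands bind, involves scramblases and flippases. Of the 11 genes 10 were listed. PLSCR1, a scramblase-family gene induced by interferon, rose with Axl knockout in control cells (0.80, SE 0.226, adjusted p = 0.0364) and in resistant cells (0.83, SE 0.226, adjusted p = 0.0437), calls that were lost in 6 and 8 of 22 alternatives. XKR9 rose with resistance in SNU449-Axl-KO (0.70, adjusted p = 0.0169) at a mean count of only 3.61. Its call was lost in 5 of 20 alternatives. With resistance in SNU449, limma called 0 of the 10, of which 1 had an unadjusted p under 0.05, and 1 was called without the block. Of all 15601 genes, 3316 had such a p and 2175 were called without the block. The median change of the list was between -0.05 and 0.10 in the 5 comparisons.

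Of the other proteins that bridge or bind phosphatidylserine, 13 of 17 were listed, and this list held 13 of the 38 calls. With resistance in SNU449, 2 rose and 1 fell. ITGB5, an integrin subunit that pairs with ITGAV, rose by 1.15 (SE 0.223, adjusted p = 0.00295), LGALS3, the lectin galectin-3, rose by 1.03 (adjusted p = 0.0146), and ITGB3, another partner of ITGAV, fell by 1.69 (SE 0.231, adjusted p = 0.000131). With resistance in SNU449-Axl-KO, LGALS3 rose by 1.41 (SE 0.249, adjusted p = 0.00285), while MFGE8, a secreted bridge between phosphatidylserine and these integrins, fell by 1.37 (SE 0.194, adjusted p = 0.000385), THBS1 fell by 1.16 and ITGB3 by 1.16. With Axl knockout in control cells, ITGB5 rose by 1.77 (adjusted p = 7.49e-05) and THBS1, the matrix protein thrombospondin-1, by 1.32 (adjusted p = 0.000939). With Axl knockout in resistant cells, MFGE8 fell by 0.80 (adjusted p = 0.0237). The resistance changes of ITGB5, THBS1 and MFGE8 differed between the backgrounds, by 1.80 (SE 0.315, adjusted p = 0.00207), 1.35 (SE 0.306, adjusted p = 0.0126) and 1.09 (SE 0.275, adjusted p = 0.0229). The calls of ITGB5 were made in every alternative. That of MFGE8 was lost in 6 of 22 with knockout in resistant cells and in 7 of 22 for the difference. For THBS1 the difference was lost in 3 of 22. With resistance in SNU449, LGALS3 was lost in 4 of 21. With resistance in SNU449-Axl-KO, THBS1 and ITGB3 were each lost in 2 of 21. The list's median change was 0.16 with resistance in SNU449 and -0.09 in SNU449-Axl-KO.

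Of the signalling partners of TAM receptors 26 of 28 were listed, and 1 or 2 were called in each comparison. Of all genes, between 4.35% and 7.81% were called in these comparisons. SOCS1, an inhibitor of cytokine signalling that TAM receptors induce in immune cells, fell with resistance in SNU449 (-1.09, SE 0.213, adjusted p = 0.00311) in every alternative, and with Axl knockout in control cells (-0.92, adjusted p = 0.0117). BCAR1, a docking protein of the SRC pathway, fell with Axl knockout in control cells (-0.86, adjusted p = 0.0185). VAV3, a member of the VAV family of signalling proteins, rose with resistance in SNU449-Axl-KO (1.36, SE 0.259, adjusted p = 0.00492) and was higher without Axl in resistant cells (1.31, adjusted p = 0.00651). The kinase SRC rose with resistance in SNU449-Axl-KO (1.06, SE 0.246, adjusted p = 0.0190). The resistance changes of VAV3 and SRC differed between the backgrounds, by -1.52 (adjusted p = 0.0179) and -1.39 (adjusted p = 0.0223). These differences were lost in 4 and 5 of 22 alternatives. With resistance in SNU449-Axl-KO, the call of VAV3 was lost in 2 of 21 and that of SRC in 4 of 21. The knockout calls were lost in 4 of 22 for SOCS1, 6 of 22 for BCAR1 and 2 of 22 for VAV3. The median change of the list was between -0.03 and 0.04 in the 5 comparisons.

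Of the 14 transcription factors known at the AXL promoter or reported upstream of AXL, all were listed. FOSL1, a subunit of AP-1, and EPAS1, the hypoxia factor HIF-2 alpha, fell with resistance in SNU449 (-0.92, SE 0.206, adjusted p = 0.00858, and -1.40, SE 0.275, adjusted p = 0.00337). MITF, a factor known from melanoma, was higher without Axl in control cells (0.87, SE 0.187, adjusted p = 0.00763) and in resistant cells (0.77, adjusted p = 0.0232), and FOSL1 was lower without Axl in control cells (-0.73, adjusted p = 0.0378). TEAD3 fell by 0.80 with Axl knockout in resistant cells (adjusted p = 0.0267). The call of TEAD3 was lost in 7 of 22 alternatives. That of FOSL1 was lost in 3 of 21 with resistance and in 7 of 22 with knockout. The calls of MITF were lost in 1 and 5 of 22 in control and resistant cells, and that of EPAS1 in 0 of 21. YAP1, the coactivator of the TEAD factors, was at -0.36 with resistance in SNU449 (adjusted p = 0.242) and at -0.05 with Axl knockout in control cells (adjusted p = 0.917). The median change of the list was -0.08 and -0.09 with resistance in SNU449 and SNU449-Axl-KO. For resistance in SNU449-Axl-KO and for the difference between the backgrounds, limma called 0 of the 14, of which 3 had an unadjusted p under 0.05 in each, and without the block 0 and 2 were called. Of all 15601 genes, 2894 and 3032 had such a p, and 1552 and 1826 were called without the block.

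Genes next to AXL on chromosome 19 were followed because they share its locus. Of 8 genes 7 were listed. With resistance in SNU449, CCDC97 (0.73, SE 0.202, adjusted p = 0.0317), CYP2S1, a cytochrome P450 (0.85, SE 0.237, adjusted p = 0.0336), and EXOSC5, a subunit of the RNA exosome (0.71, SE 0.185, adjusted p = 0.0226), rose, and the median change of the list was 0.47 beside 0.00 for all genes. AXL itself was at 0.46 in this comparison. With Axl knockout in resistant cells, EXOSC5 (-0.88, adjusted p = 0.00985) and HNRNPUL1, the gene directly downstream of AXL (-0.78, adjusted p = 0.0161), fell, and the median was -0.53. With knockout in control cells limma called 0 of the 7, of which 3 had an unadjusted p under 0.05 and 1 was called without the block, and the median was 0.34. The count was also 0 with resistance in SNU449-Axl-KO, where 3 had an unadjusted p under 0.05 and 2 were called without the block. Of all 15601 genes, 3357 (knockout in control cells) and 2894 (resistance in SNU449-Axl-KO) had such a p. Without the block, 2182 and 1552 of all genes were called. The resistance change of EXOSC5 differed between the backgrounds by 1.35 (SE 0.262, adjusted p = 0.00453) in every alternative, and that of HNRNPUL1 by 0.94 (SE 0.248, adjusted p = 0.0296). The median of this difference over the list was 0.94 beside -0.01 for all genes. The calls of CCDC97 and CYP2S1 were each lost in 6 of 21 alternatives, and that of EXOSC5 with resistance in SNU449 in 5. The call of HNRNPUL1 was lost in 6 of 22 alternatives with knockout in resistant cells and in 9 of 22 for the difference between the backgrounds, and that of EXOSC5 with knockout in resistant cells in 4 of 22.

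**Figure D5:**
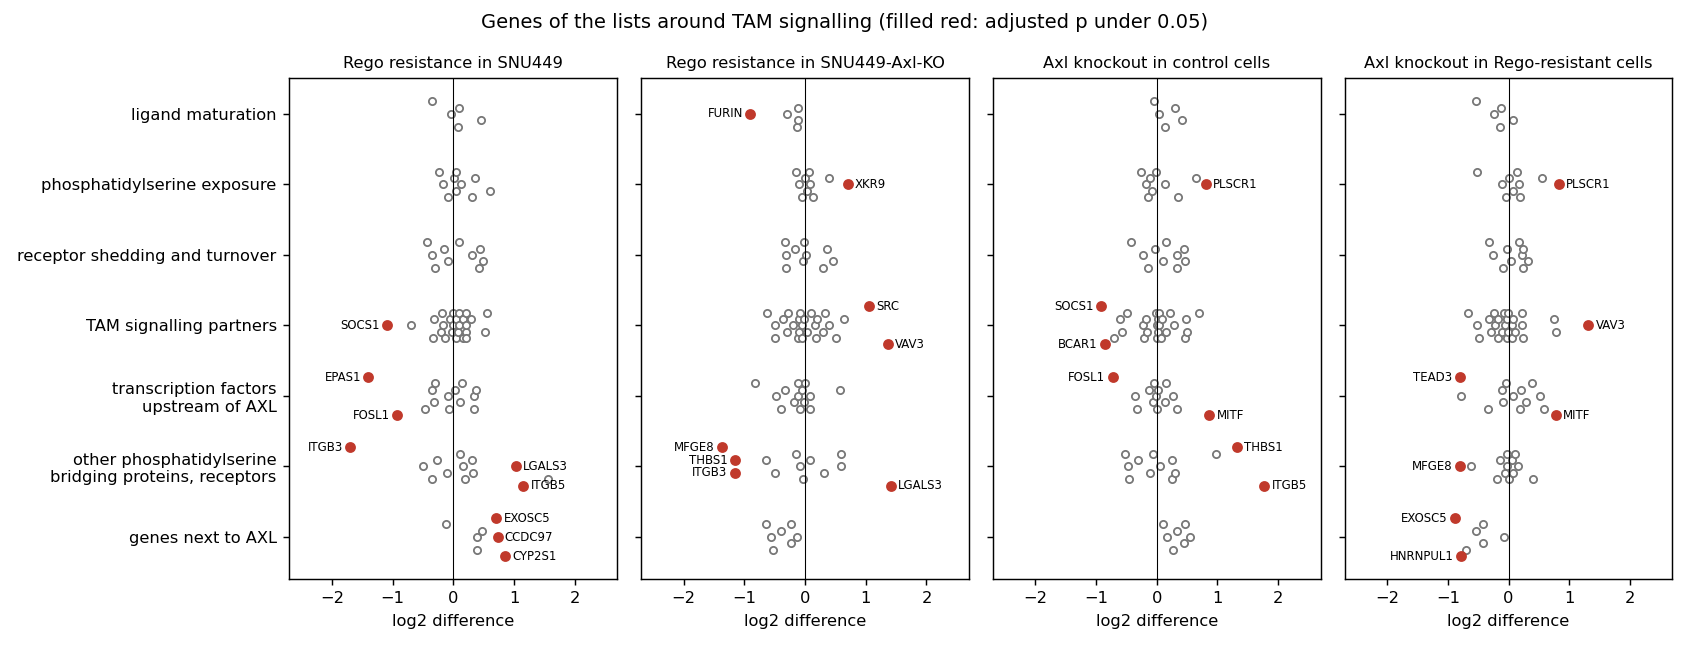
Log2 differences of the listed genes of the 7 lists (rows) in the 4 comparisons of 2 groups (panels); filled red points, with names, have an adjusted p under 0.05. Most genes lie near 0, the bridging proteins and integrins hold the largest changes (ITGB3 at -1.69 and ITGB5 at 1.77), and the genes next to AXL lie mostly to the right for resistance in SNU449 and knockout in control cells and to the left in the other panels.

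The genes with the most similar profiles over the 12 libraries were determined for each member among 6280 genes whose group means spanned at least 0.5, as a description without a test. TYRO3, MERTK and PROS1 themselves had smaller spans (0.08, 0.30 and 0.41), so that genes as flat as these were not compared with them. The libraries share their group and their normalization, so that any gene that differs between the groups in the same way ranks high. For AXL, whose values fell into the separate ranges of SNU449 and SNU449-Axl-KO, these were ME2, a mitochondrial malic enzyme (Pearson r = 0.981), a lncRNA without a name, THAP11, LINC01060 and DNAJC5 (r = 0.950). For GAS6 they were FBXL18 (r = 0.942), the cochaperone DNAJB6, the actin-binding CNN2, AGO2 and MAP1S (r = 0.929). CNN2, for instance, had group means of 8.61, 9.37, 9.35 and 8.80 on the log2 scale in SNU449-ctrl, SNU449-Rego, SNU449-Axl-KO-ctrl and SNU449-Axl-KO-Rego, so that the same groups were high and low as for GAS6. For PROS1, TMBIM4 (r = 0.899), MAP2K6, GRB7, NADK2 and OSMR, the oncostatin M receptor (r = 0.841), were most similar. For MERTK they were the ribosomal gene RPS20 (r = 0.937), NCKIPSD, NRG1, TMEM258 and TRIM6. For TYRO3, whose library values hardly varied between groups, ENO2 came first (r = 0.720), and genes as flat as TYRO3 had been filtered out.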

How the data were processed

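RNA of 12 QuantSeq 3′ libraries from 4 groups of cells was analysed. Per the labels and methods, the authors trimmed reads with cutadapt 4.0, aligned them with STAR 2.5.3a to GRCh38 with GENCODE v40 and spike-in sequences, and fitted DESeq2 with the preparation date. The library values are scores that the authors deposited as rounded batch-corrected values, made separately for each of the 8 tables. The second deposited quantity used here is the authors' mean normalized count of a table, a signal without a spread that summed to between 4.16e+06 and 4.92e+06 per table. Columns of the authors' log2 fold changes, errors and p-values were not used. Counts of single libraries were not used here, so their depth is unknown and no interval from depth is given.

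The main fit was limma 3.58.1 (R 4.3.3, lmFit and eBayes with trend) on log2(value + 1) of the 12-library table that compares the backgrounds, with group and the replicate number as a block, since an effect of that number had been removed from the values. The median deviation of a replicate-number mean was 0.00126, against 0.122 for a library from its group. Deviations of same-numbered libraries are thereby forced apart (r from -0.542 to 0.0269 in 18 pairs), so that the values cannot show whether the numbers pair the samples. Spike-in RNAs were left out. The fit was also run on simulated data with planted changes and noise drawn independently for each gene. The outcome of that run is not given here, and no call rests on it. Solved group means are the least-squares solution over the means of the 6 pair tables; that of AXL was not used because it missed the table means by up to 150.3%. Promoters are from RefSeq, matched by symbol for all 5 genes, and annotation from GENCODE v44, whose coordinates were equal to those of the files. Tools were Python 3 with pandas and numpy.

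The members, lists and tests were chosen with earlier results of these data known. Named are the 5 members, the 5 genes with the most similar profile to each, and, per list and comparison, at most the 4 called genes with the largest change, or, where fewer are called, others of the list as values. GGCX, VKORC1, ADAM10, ADAM17 and YAP1 were named for their known role in the list. Alternatives were no block, the pair tables, upper-quartile and spike-in scaling, a minimum mean normalized count of 10, pseudocounts of 0 and 16, eBayes without trend, and leaving out each library. A block within control and within resistant cells, and the pair tables without a block, were added after seeing the data.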

Additional observations from a re-analysis of the deposited data

Results flagged for a closer look

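The resistance change of GAS6 differed between the backgrounds by 1.29 on the log2 scale (limma interaction, SE 0.316, adjusted p = 0.0198). GAS6 was at 0.74 in SNU449 and at -0.54 in SNU449-Axl-KO, with all 3 resistant libraries above the control libraries in the first and all 3 below in the second. In the alternatives other than leaving out a library the difference ranged from 1.12 to 1.30 and was called in 9 of 10, and without 1 library it ranged from 1.06 to 1.48 and was called in 6 of 12. Groups of 3 libraries were not tested for outlying samples.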

How the results depend on the processing

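The AXL knockout changes were called in all alternatives and with any 1 library left out, with changes from -4.80 to -3.49. No resistance change of AXL was called in any of them, and its difference between the backgrounds ranged from -0.043 to 0.51 without 1 library. Without the replicate block the 5 comparisons had 2175, 1552, 2182, 1503 and 1826 called genes in the order of resistance in SNU449, resistance in SNU449-Axl-KO, knockout in control cells, knockout in resistant cells and the difference between the backgrounds, against 1219, 678, 1163, 682 and 916 with the block. Taking away the block changed no call of the 5 members. In the tables of the pairs with the block, 603 genes were called with resistance in SNU449, 603 with knockout in control cells and 1160 with knockout in resistant cells, the calls of GAS6 with resistance in SNU449 (0.58) and with knockout in control cells (0.64) were lost, and the change of TYRO3 with resistance in SNU449-Axl-KO turned to -5.42e-05. In these tables without the block, 2947, 3566, 3750, 4024 and 1831 genes were called (the last in the other 12-library table), that of TYRO3 was again -5.42e-05, and MERTK (0.17) and GAS6 (-0.33) were called with knockout in resistant cells. Centring on the spike-in RNAs moved the median change of all genes to 0.21 and 0.31 in the knockout comparisons, 0.14 with resistance in SNU449-Axl-KO and -0.10 for the difference, turned TYRO3 to 0.13 and 0.29 in the knockout comparisons, lost GAS6 with resistance in SNU449 (0.79) and its difference between the backgrounds (1.20), and gave 1799 called genes with knockout in resistant cells, 1731 up and 68 down, against 381 up and 301 down. GAS6 was lost with resistance in SNU449 at a pseudocount of 16 (0.65). MERTK could not be fitted at a minimum mean count of 10. Without 1 library, GAS6 ranged from 0.52 to 0.93 with resistance in SNU449, from 0.58 to 0.94 with knockout in control cells and from 1.06 to 1.48 for the difference. TYRO3 ranged from -0.20 to 0.063, -0.18 to 0.23, -0.30 to 0.11, -0.13 to 0.14 and -0.29 to 0.12 in the 5 comparisons, PROS1 from -0.15 to 0.30 with resistance in SNU449, -0.039 to 0.41 with knockout in control cells and -0.33 to 0.12 for the difference, and MERTK from -0.045 to 0.11 with resistance in SNU449-Axl-KO and -0.030 to 0.14 with knockout in control cells. The counts of called genes ranged from 740 to 1299, 205 to 891, 540 to 1275, 219 to 826 and 523 to 922. The cause of these differences was not tested. The replicate block within control and within resistant cells, chosen after seeing the data as were the pair tables without a block, changed no call of the 5 members. Without counts per library, the depth of a library sets no stated limit, and MERTK is the member that low counts limit most.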

Other observations

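Transcripts that share the GAS6 locus were read beside it. GAS6-AS1, the antisense RNA that overlaps GAS6 exons, changed by 0.09 with resistance in SNU449 and by 0.20 in SNU449-Axl-KO (adjusted p = 0.882 and 0.732), and its difference between the backgrounds was -0.11 (adjusted p = 0.913). GAS6-DT, the divergent transcript that starts beside the GAS6 promoter, changed by -0.20 in SNU449 and by -0.55 in SNU449-Axl-KO (adjusted p = 0.646 and 0.168), with a difference of 0.35 (SE 0.306, adjusted p = 0.598). With Axl knockout in control cells they were at -0.12 and 0.03 (adjusted p = 0.851 and 0.967). None of these values was called.

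EDIL3, a secreted protein that bridges phosphatidylserine and integrins, had a larger resistance change in SNU449 than any called gene of the 7 lists except ITGB3 in size, 1.56 on the log2 scale, but its spread was wide (SE 0.592, adjusted p = 0.126). It was named after its value was seen.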
